A study of Mus musculus with 17 samples.

Results

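The abundant lincRNAs of mouse cortical nuclei were defined here as the genes annotated as lincRNA that averaged at least 500 reads over 9 bulk nuclear RNA-seq libraries, leaving out Gm14532 and Gm13844. This rule kept 116 of 5499 lincRNAs, among 36293 genes listed. Of the 116, the symbols of 114 were also present in the sNucDrop-seq tables, the exceptions being AL732506.1 and AY036118. The members were selected on their mean bulk read count, which ran from 514 reads for Gm6712 to 278213 for Malat1, with a median of 1500. Just inside the limit lay Gm6712 (514), AC153140.2 (517) and Gm28175 (524), and just outside it Gm17276 (496), B230217O12Rik (493) and AC129328.1 (490). The study asked how chronic unpredictable stress (CUS), a rodent protocol in which mice receive a changing sequence of stressors, changes transcription in the cortex.

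All mice were adult males, labelled C57BL/6 and given as C57Bl/6J in the study's methods, and the labels name no transgene or deletion. Bulk libraries came from punches of the medial prefrontal cortex of 4 control and 5 CUS mice at postnatal day 90, collected after behavioral testing. Single-nucleus libraries came from the neocortex of another 4 control and 4 CUS mice at postnatal day 80, collected the day after the last stressor. CUS lasted 12 days with 3 stressors a day, while controls stayed in another room and were handled every day. Each library was 1 mouse. The nuclei came from 2 batches, each with 2 control and 2 CUS mice. The study's methods describe a marked batch effect, for which its own model held a term. Which mouse belonged to which batch was not given in the sources used here, so no batch term was fitted.

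A lincRNA is a transcript without a long reading frame whose gene lies mostly between protein-coding genes. Many stay in the nucleus, where some build nuclear bodies, such as Neat1 in paraspeckles, or collect at them, such as Malat1 at nuclear speckles. Others come from imprinted clusters or serve as precursors of microRNAs, in which case the hairpin is cut out of the nuclear transcript before the mature microRNA is exported to repress messenger RNAs that match its seed. Nuclear RNA therefore reads the precursor and not the mature product.

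MicroRNA precursors made up a recognizable portion of the abundant lincRNAs. On their own strand, 15 of the 116 held a hairpin of the RefSeq sequence table (GRCm38.p6, the coordinates of mm10). Together these hosts held 39 hairpin genes, 65 mature microRNAs and 57 distinct seeds. Mirg on chromosome 12 (chr12:109729764-109749460, plus strand) held 14 hairpin genes and A230057D06Rik on chromosome 7 held 7, of the miR-344 family. All 3 mouse genes for miR-9 lay in abundant lincRNAs, namely Mir9-1 in Gm3764, Mir9-2 in C130071C03Rik and Mir9-3 in Mir9-3hg. The sequences below, from RefSeq, are those of hosts to which the results return. They are written 5′ to 3′ with the seed, bases 2 to 8, in capitals. The miR-9 pair can be made from any of its 3 hosts, miR-134, miR-382 and miR-410 lie in Mirg, miR-138 in C78859 (Mir138-2), miR-101a in E130102H24Rik, miR-344d in A230057D06Rik, and miR-129 in both Mir670hg and Gm3294.
mmu-miR-9-5p: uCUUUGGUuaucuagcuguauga
mmu-miR-9-3p: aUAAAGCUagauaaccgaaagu
mmu-miR-134-5p: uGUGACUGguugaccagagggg
mmu-miR-382-5p: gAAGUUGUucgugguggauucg
mmu-miR-410-3p: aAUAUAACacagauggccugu
mmu-miR-344d-3p: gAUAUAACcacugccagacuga
mmu-miR-138-5p: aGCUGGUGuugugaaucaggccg
mmu-miR-101a-3p: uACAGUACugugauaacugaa
mmu-miR-129-5p: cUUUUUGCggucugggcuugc
The seed AUAUAAC of miR-410-3p in the chromosome 12 cluster was also that of miR-344d-3p in the chromosome 7 cluster, although the rest of the sequences differ. The spans of a further 7 members, 22 in all, held a RefSeq microRNA gene for which the gene table gives no strand. They were Mir124a-1hg and Mir124-2hg, which span genes of miR-124, a familiar neuronal microRNA, Gm20732 (Mir30d), Gm26551, Gm26694, Gm26668 and Gm26904.

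Reads were concentrated on few of the lincRNAs. Malat1 and Gm28928 took 50.3% of all reads on the 116 genes, and the first 10 genes took 73.7%. The 116 genes held between 2.53% and 2.92% of all bulk reads, from 2.53% to 2.73% in control and from 2.69% to 2.92% in CUS mice. Per kilobase of gene span, the highest bulk levels were those of AL732506.1 (67500 reads per kb), Malat1 (39800), Bc1 (15500), Gm26917 (11100), AY036118 (2630) and Snhg10 (2160). AL732506.1 lies on the gene of the RNase MRP RNA in RefSeq, and Gm42418 and AY036118, on opposite strands, overlap Rn18s-rs5, a RefSeq pseudogene named for a ribosomal RNA. The median gene spanned 46.5 kb, with 3.09 kb of exons, and 26 of the 116 overlapped a protein-coding gene in the annotation of the files, 17 of them one on the same strand, where reads of 2 genes cannot be told apart. By the RefSeq gene spans, on either strand, 37 did. RefSeq places Gm28928 within Dpp10, AC129186.1 within Robo2, C78859 within Nup93 and Gm43597 within N4bp2l2, and it annotates Gm37494 as the protein-coding gene Gm33989.

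Bulk libraries held between 26188825 and 30525015 counted reads. A single control library stood apart in markers of the striatum, the region below the cortex. Drd2, a dopamine receptor of striatal projection neurons, was at 2.38, 1.79, 4.14 and 19.0 CPM (reads scaled to library size with TMM factors) in controls 1 to 4 and between 1.18 and 2.24 CPM in the CUS mice. Rarb was likewise at 139 CPM in control 4 against 25.1 to 45.7 CPM elsewhere. The fold changes of called members are therefore given with and without control 4 and those of other genes and marker lists mostly with it, and in bulk tissue fewer cells of a type cannot be told apart from less RNA per cell.

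In the medial prefrontal cortex, CUS mice differed from controls in 16 of the 116 lincRNAs, 6 higher and 10 lower (quasi-likelihood test of edgeR, p-values adjusted over all genes after Benjamini and Hochberg, FDR 0.05). The share of all genes tested that was called was 3.29%, with 1.16% higher and 2.13% lower, and among the 7561 genes with a mean of at least 500 reads it was 4.92%. The groups did not overlap for 19 members, 10 higher and 9 lower in CUS, against 8.76% of all genes, 4.06% higher and 4.7% lower. The median log2 fold change of the members was 0.04, and that of all genes 0.01. The 16 included 4 members that span a microRNA gene (3 of them with a hairpin on their own strand), a paraspeckle RNA and several uncharacterized genes. Without control 4, 14 members were called, 11 of which were among the 16. The count was 5 without control 2, CUS 4 or CUS 5, 9 without CUS 1 or CUS 3, and 33 without control 3. Called whichever mouse was left out were 5 members, namely 6530403H02Rik, Gm32647, 6030443J06Rik, Gm37494 and Mirg.

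**Figure D1:**
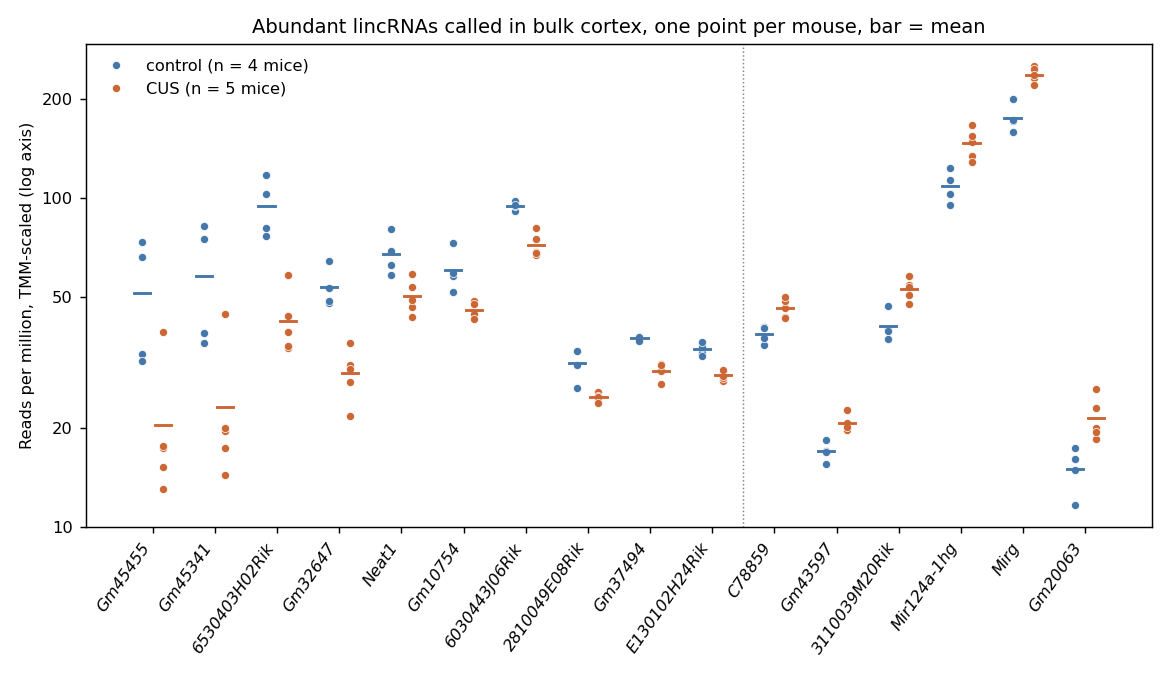
TMM-scaled bulk read counts (CPM) on a log axis for each abundant lincRNA called between CUS and control in bulk nuclei, with 1 point per mouse (4 control, 5 CUS) and a bar at the group mean. The 10 genes on the left were lower and the 6 on the right higher in CUS, and the points of the 2 groups overlap for Gm45455, Gm45341 and Neat1.

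Among the microRNA precursors, Mirg rose. It was at 159, 171, 172 and 200 CPM in the 4 control mice and at 252, 231, 220, 247 and 236 CPM in the 5 CUS mice. Every CUS mouse was above every control mouse. Group means were 176 ± 17.4 CPM in control (SD, n = 4) and 237 ± 12.7 CPM in CUS mice (n = 5), and the log2 fold change was 0.43 (SE 0.07, edgeR's quasi-likelihood test, adjusted p = 0.00969). Mirg is the most distal of the maternally expressed RNAs of the imprinted Dlk1-Dio3 region, downstream of Meg3 and the snoRNA host Rian. Of the 8 listed genes of that region, 6 were tested and only Mirg was called. Meg3, a tumor-suppressor lincRNA of the same strand, was at 1760 ± 189 CPM in control and 1930 ± 102 CPM in CUS mice, a log2 difference of 0.14 (adjusted p = 0.323, overlapping groups), and Rian had the same log2 difference of 0.14 (adjusted p = 0.168).

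Mir124a-1hg (chr14:64587331-64593961, plus strand) also rose. Controls were at 94.9, 103, 123 and 113 CPM and CUS mice at 148, 134, 129, 154 and 167 CPM. The lowest CUS mouse was above the highest control, and the log2 fold change was 0.43 (SE 0.09, edgeR, adjusted p = 0.0246). C78859, the host of Mir138-2, was at 35.8, 37.4, 40.5 and 40.2 CPM in controls and at 46.4, 43.5, 43.1, 48.4 and 50.1 CPM in CUS mice (log2 fold change 0.27, SE 0.06, adjusted p = 0.0414). These groups did not overlap either. E130102H24Rik, the host of Mir101a, fell from 33.8, 35.2, 33.0 and 36.5 CPM to 29.5, 27.7, 28.3, 28.8 and 29.9 CPM (log2 fold change -0.26, SE 0.05, adjusted p = 0.0228), again without overlap. Without control 4 the log2 fold changes of Mirg, Mir124a-1hg, C78859 and E130102H24Rik were 0.51, 0.46, 0.30 and -0.23, and all 4 were still called. Of the 22 members that span a microRNA gene, the other 18 did not pass the test, among them Mir124-2hg (log2 difference 0.17, adjusted p = 0.398) and Gm20732 (-0.29, adjusted p = 0.0599). The hosts of miR-129 were at -0.19 for Mir670hg (adjusted p = 0.177) and -0.05 for Gm3294 (adjusted p = 0.771). For the 3 hosts of miR-9 the log2 differences were 0.27 for Gm3764 (adjusted p = 0.0921), 0.04 for C130071C03Rik (adjusted p = 0.805) and 0.07 for Mir9-3hg (adjusted p = 0.619). Markers of neurons were measured beside these hosts. All 6 excitatory markers were above zero, with a median log2 difference of 0.24, a summed level of 998 to 1290 CPM in control and 1270 to 1350 CPM in CUS mice, and 1 of them, Neurod6, called. All 5 inhibitory markers were below zero, with a median of -0.14 and none called. No marker of either list was at 0, and their part in the rise of the hosts was not tested.

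The largest falls with separate groups came from long genes of unknown function. 6530403H02Rik (chr3:120604109-120886733, minus strand) was at 76.5, 103, 80.9 and 117 CPM in controls and at 34.9, 58.1, 39.2, 35.5 and 43.6 CPM in CUS mice. All CUS mice lay below all controls. Group means were 94.5 ± 19.1 CPM in control and 42.2 ± 9.54 CPM in CUS mice, and the log2 fold change was -1.16 (SE 0.15, edgeR, adjusted p = 0.0054). Gm32647 (chr7:94042691-94709171, plus strand) went from 47.9, 48.6, 53.3 and 64.2 CPM to 21.7, 36.3, 31.1, 27.5 and 30.2 CPM, without overlap (log2 fold change -0.87, SE 0.13, adjusted p = 0.00681). Without control 4 the log2 fold changes were -1.04 and -0.76, and both genes were still called.

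6030443J06Rik (chr5:22550432-22807850, plus strand), which shares its strand with part of the OPC gene Lhfpl3, was at 91.5, 94.5, 98.1 and 95 CPM in controls and at 67.2, 81.0, 74.9, 68.3 and 67.8 CPM in CUS mice. The groups were separate, and the log2 fold change was -0.40 (SE 0.06, adjusted p = 0.00953), or -0.39 without control 4 and still called. Lhfpl3 itself fell by 0.56 on the log2 scale (adjusted p = 0.0159). It was the only nearest protein-coding neighbor of the 16 called lincRNAs that was called too. Of 7 markers of OPCs, the precursors of oligodendrocytes, Lhfpl3 itself and Ptprz1 were called lower, and the other 5 did not pass the test, with log2 differences from -0.24 for Vcan to 0.29 for Neu4. The summed level of the 7, the largest part of it Lhfpl3, was 501 to 607 CPM in control and 395 to 467 CPM in CUS mice, and none was at 0. Their part in the result was not tested. In the nuclei described further on, 6030443J06Rik had a median of 30.9 CPM in OPC-like nuclei (0 to 101 CPM, 21 UMIs). Its medians were similar in some other classes, at 30.0 CPM in excitatory-like (1441 UMIs), 29.0 CPM in inhibitory-like, 37.7 CPM in striatal-like and 37.0 CPM in astrocyte-like nuclei. They were lower in oligodendrocyte-like (15.1 CPM, 23 UMIs) and microglia-like nuclei (8.5 CPM, 14 UMIs).

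Gm10754, a lincRNA with its highest level in striatal-like nuclei as described further on, was at 51.6, 57.7, 59.2 and 73.0 CPM in controls and at 44.6, 44.4, 48.4, 42.9 and 47.5 CPM in CUS mice. The highest control value was that of control 4, and no value overlapped (log2 fold change -0.41, SE 0.09, adjusted p = 0.0272). Without control 4 it was -0.29 (adjusted p = 0.0344). Of 9 striatal markers, 8 were below zero with a median log2 difference of -0.77, none passed the test in that direction, and Pde10a, a phosphodiesterase, rose by 0.61 (adjusted p = 0.0161). The summed level of the 9 was 992 to 1490 CPM in control and 1470 to 1710 CPM in CUS mice, most of it Pde10a, and no marker was at 0. Nr4a2, a nuclear receptor that marks the claustrum and layer 6b, fell by 1.76 on the log2 scale (8.49 to 2.52 CPM, adjusted p = 0.00107). The other 3 claustrum markers did not pass the test, with log2 differences from -0.25 for Gnb4 to 0.19 for Synpr. The summed level of the claustrum markers did not fall, at 177 to 223 CPM in control and 184 to 259 CPM in CUS mice. Of the 3 L6b markers tested, all were below zero with a median of -0.45 and none was called. The summed level of the L6b markers was 15.8 to 23 CPM in control and 14.6 to 18.1 CPM in CUS mice. For Ctgf, the marker at that median, control 4 was the highest mouse, at 11.3 CPM against 5.17 to 7.51 CPM in the other controls. The median without control 4 was not taken. Of 6 markers of layer 6, 5 were below zero and Ntsr1, a neurotensin receptor, was called (log2 fold change -0.65, adjusted p = 0.0323). Hs3st4 was above zero at 0.28, and the summed level of the 6 was 1090 to 1320 CPM in control and 881 to 1520 CPM in CUS mice. The part of these cells in the fall of Gm10754, 6530403H02Rik and Gm32647 was not tested.

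Neat1, the scaffold RNA of paraspeckles, was at 62.7, 58.4, 68.8 and 80.7 CPM in controls and at 58.8, 46.6, 53.7, 43.4 and 49.0 CPM in CUS mice. CUS 1 lay within the control range, and control 4 was the highest mouse. The log2 fold change was -0.43 (SE 0.10, edgeR, adjusted p = 0.0417), and without control 4 it was -0.32 (adjusted p = 0.08). None of 12 genes of paraspeckle proteins passed the test, and their median log2 difference was -0.07. All 9 markers of oligodendrocytes, the nuclei in which Neat1 was highest, were below zero, with a median of -0.55, a summed level of 305 to 716 CPM in control and 321 to 405 CPM in CUS mice, and 1 of them, St18, called. Gm37494, which shared that class of nuclei, was at 37.8, 37.6, 37.7 and 36.8 CPM in controls and at 29.9, 31.2, 29.8, 31 and 27.2 CPM in CUS mice, without overlap (log2 fold change -0.33, SE 0.05, adjusted p = 0.0105). Without control 4 it was likewise -0.33 and still called. Astrocytes were the next highest class for both genes, and 10 of 11 astrocyte markers were below zero, with a median of -0.30, a summed level of 2080 to 2440 CPM in control and 1890 to 2190 CPM in CUS mice, and Gja1, Aqp4, Slc4a4 and Bmpr1b called lower. The part of oligodendrocytes and astrocytes in either value was not tested.

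Gm45341 and Gm45455 overlap on the same strand of chromosome 8, correlated at 1.0 over the 9 mice (Pearson, log2 CPM), and cannot be told apart. Gm45341 was at 38.8, 74.8, 36.3 and 82.0 CPM in controls and at 14.4, 44.2, 19.6, 17.4 and 19.9 CPM in CUS mice. CUS 2 lay above controls 1 and 3. The log2 fold change was -1.34 (SE 0.32, edgeR, adjusted p = 0.0405), and without control 4 it was -1.12 (adjusted p = 0.0826). 2810049E08Rik fell from 31.4 ± 3.68 to 24.7 ± 0.699 CPM (log2 fold change -0.35, adjusted p = 0.0297). Of the remaining increases, 3110039M20Rik rose from 40.8 ± 4.25 to 52.8 ± 3.88 CPM (0.37, adjusted p = 0.0246), Gm20063 from 15 ± 2.49 to 21.4 ± 3.19 CPM (0.52, adjusted p = 0.0415) and Gm43597 from 16.9 ± 1.13 to 20.7 ± 1.15 CPM (0.29, adjusted p = 0.0384). The groups of these last 4 genes did not overlap. Without control 4, Gm20063 (0.43, adjusted p = 0.0633) and Gm43597 (0.30, adjusted p = 0.051) no longer passed the threshold, while 2810049E08Rik (-0.41) and 3110039M20Rik (0.46) did.

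The best known lincRNAs mostly did not pass the test. Malat1 was at 8820, 8900, 9470 and 9590 CPM in controls and at 10900, 9610, 10700, 10200 and 9710 CPM in CUS mice. All CUS mice were above all controls, yet the log2 difference of 0.15 (SE 0.07) had an adjusted p of 0.198. Among 18 genes of nuclear speckle proteins, only Rnps1, a splicing activator, was called (log2 fold change 0.22, adjusted p = 0.0428). Miat, which collects splicing factors in neuronal nuclei, differed by 0.13 (adjusted p = 0.371), and none of its 4 listed partners was called. Rmst, a partner of the transcription factor Sox2, differed by 0.16 (adjusted p = 0.17), Pvt1, the neighbor of Myc, by 0.23 (adjusted p = 0.0711), Pantr1, the neighbor of Pou3f3, by 0.24 (adjusted p = 0.242), Ftx of the X-inactivation center by 0.07 (adjusted p = 0.521) and 2900097C17Rik by -0.07 (adjusted p = 0.512). Snhg10, a snoRNA host, went from 107 ± 12.2 to 141 ± 18.6 CPM without overlap, at an adjusted p of 0.0524, and it was called without control 4 (log2 fold change 0.45, adjusted p = 0.0445). AY036118 was at 352 CPM in control 2 and between 42.9 and 65.7 CPM in the CUS mice, a log2 difference of -1.12 (adjusted p = 0.271) that was 0.38 without that library.

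The cell types that hold these lincRNAs were read from 40000 barcodes, of which 26698 were kept after removing nuclei outside 600 to 5000 genes, with over 5% mitochondrial UMIs or with a high doublet score (15.2% of those that passed the other filters). Between 1935 and 4235 nuclei a mouse were kept, with a median of 1804.5 to 2441 UMIs. The libraries shared 20 of 26677 distinct barcodes. Clusters were formed without lincRNAs and named from markers as excitatory-like (17477 nuclei), inhibitory-like (2872), striatal-like (1791), astrocyte-like (1170), oligodendrocyte-like (654), OPC-like (432) and microglia-like (250), with 1915 nuclei in unnamed clusters, 78 called newly formed oligodendrocyte-like and 59 endothelial-like. The study counts striatal cells and the adjoining claustrum as tissue from outside the cortex that contaminated its dissections. Levels in nuclei are given as CPM, the UMIs of a gene scaled to all UMIs of that class in that mouse. The microglia-like nuclei also held oligodendrocyte and neuronal RNA, with Slc17a7, the vesicular glutamate transporter of excitatory neurons, at 138 CPM against 228 CPM in excitatory-like, 44.5 CPM in astrocyte-like and 14.0 CPM in inhibitory-like nuclei. These last 2 values are the level that this 1 RNA reached in cells that should lack it. More abundant neuronal RNAs were higher in astrocyte-like nuclei, with Snap25 at 743 CPM against 2610 CPM in excitatory-like nuclei. Syt1 was at 916 CPM against 4460 CPM.

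Across 114 genes, the Spearman rho between the mean bulk count, on which the members were selected, and the UMIs in nuclei was 0.57. It was 0.89 when both were taken per kilobase of gene span, a divisor that both measures then share, and genes are not replicates. The lincRNAs took 8.75% of UMIs on average over mice, of which Malat1 alone was 4.98% to 9.05% of all UMIs. Their share was 11.5% in astrocyte-like and 11.1% in oligodendrocyte-like nuclei, 9.42% in striatal-like, 8.9% in excitatory-like, 8.04% in microglia-like, 7.68% in inhibitory-like and 7.14% in OPC-like nuclei. Malat1 was the main part of these shares. Over the 8 mice it was at 92000 to 119000 CPM (median 105000) in astrocyte-like, 48200 to 93400 CPM (median 66200) in excitatory-like and 41900 to 71200 CPM (median 51900) in inhibitory-like nuclei.

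**Figure D2:**
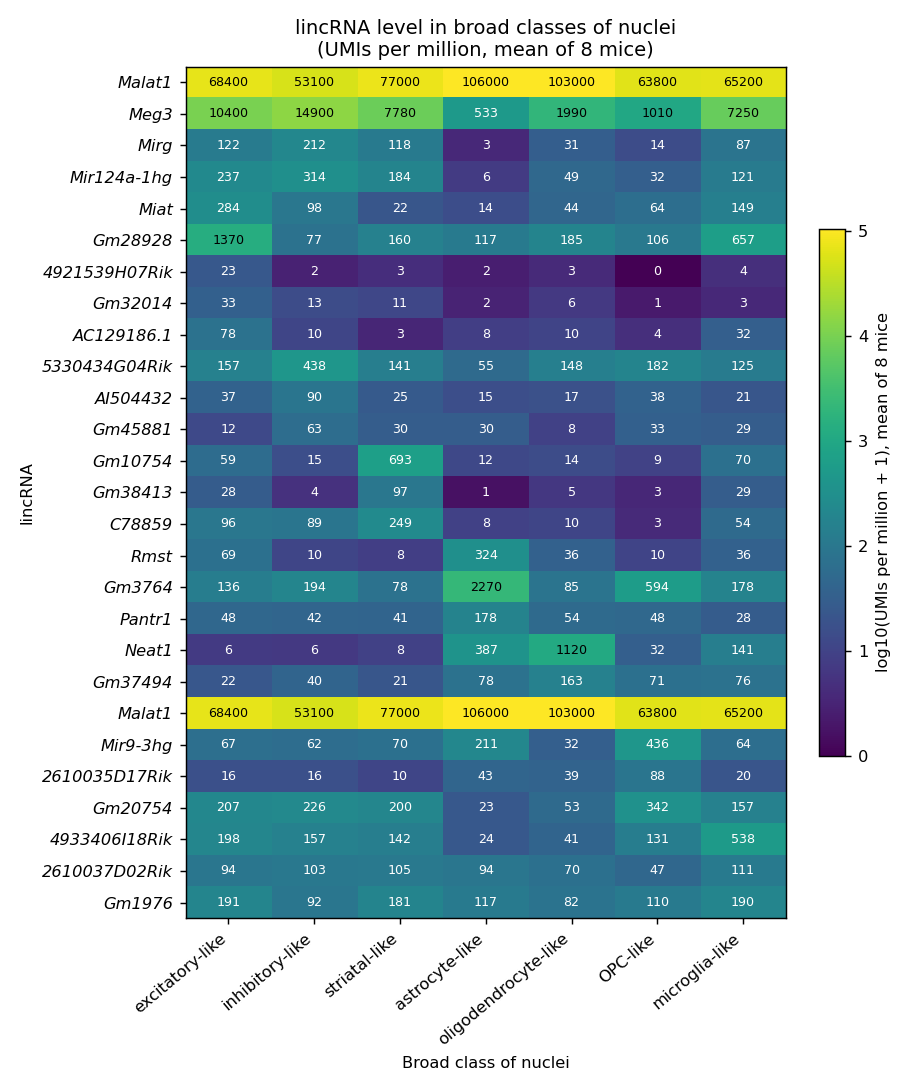
UMI level (CPM) in 7 broad classes of nuclei for Malat1, Meg3, other known lincRNAs and the members with the highest ratio of each class over the next class, each cell giving the mean of 8 mice, with a log10 color scale. Neat1 is at 1120 in oligodendrocyte-like nuclei and 6.08 in excitatory-like nuclei, Gm3764 at 2270 in astrocyte-like nuclei, and Gm10754 at 693 in striatal-like nuclei.

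More of the abundant lincRNAs were higher in neurons than in glia. With the mouse as a block, 57 of 109 members tested differed at least 2-fold between cortical neurons and glia (edgeR's quasi-likelihood test, FDR 0.05), 47 higher in neurons and 10 higher in glia, against 32.3% of all genes called, 14.3% higher in neurons and 18% higher in glia. The median log2 difference, neurons minus glia, was 0.74 over the members and 0.03 over all genes. The members were selected on reads from punches of prefrontal cortex, tissue that holds neurons and glia, and in the nuclei of the other cohort cortical neurons held 54524346 UMIs against 3507346 in glia, so the selection itself may favor genes high in neurons. Among the 7376 genes tested with at least the same mean bulk count, 25.8% were called, 15.8% higher in neurons and 9.99% higher in glia, with a median of 0.17. Scaling to total UMIs alone shifted these differences by -0.10 and gave 47 and 14. Without the doublet filter 30 were called, 26 and 4.

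The microRNA precursors of the neuronal side included those that rose in bulk. Mir124a-1hg was at 161 to 369 CPM (median 211) in excitatory-like, 236 to 451 CPM (median 282) in inhibitory-like and 0 to 22.7 CPM (median 0) in astrocyte-like nuclei, with a neuron minus glia log2 difference of 2.82 (SE 0.12). Neuronal and astrocyte-like values never met. Mirg was at 142 to 245 CPM (median 216) in inhibitory-like, 98 to 146 CPM (median 124) in excitatory-like and 0 to 13.1 CPM in astrocyte-like nuclei (log2 difference 2.56, SE 0.14), and its highest named types were the interneurons called Pv-like (237 CPM), Vip-like (222 CPM) and Sst-like (214 CPM). C78859 was at 249 CPM in striatal-like, 95.8 CPM in excitatory-like and 8.38 CPM in astrocyte-like nuclei (log2 difference 2.52, SE 0.16). Meg3, in the same imprinted region as Mirg, was at 14900 ± 3840 CPM (n = 8) in inhibitory-like, 10400 ± 2430 CPM in excitatory-like and 533 ± 266 CPM in astrocyte-like nuclei (log2 difference 2.67, SE 0.09). Miat, at 284 ± 38.8 CPM in excitatory-like nuclei, 98.5 ± 13.8 CPM in inhibitory-like and 21.5 CPM in striatal-like nuclei, was higher in cortical neurons than in glia (log2 difference 2.59, SE 0.12).

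The 3 hosts of the identical miR-9 sequences differed in their spread over the classes, although all were present in astrocyte-like and OPC-like nuclei. Gm3764 was at 2000 to 2640 CPM (median 2280) in astrocyte-like and at 483 to 739 CPM in OPC-like nuclei, but at 89.6 to 192 CPM in excitatory-like nuclei. Mir9-3hg was highest in OPC-like nuclei, at 316 to 577 CPM (median 399), followed by astrocyte-like nuclei at 147 to 279 CPM, and was at 60.3 to 75.1 CPM in excitatory-like nuclei. C130071C03Rik was at 341 to 500 CPM in astrocyte-like, 356 to 441 CPM in inhibitory-like, 193 to 477 CPM in OPC-like and 247 to 327 CPM in excitatory-like nuclei. The first 3 of these ranges overlapped, and the excitatory-like range lay within the OPC-like range but below the astrocyte-like and inhibitory-like ranges. The neuron minus glia log2 difference was -2.93 (SE 0.08) for Gm3764, -1.29 (SE 0.09) for Mir9-3hg and 0.08 for C130071C03Rik, the last below the 2-fold limit.

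Of the other glial lincRNAs, Neat1 had the largest difference. It was at 414 to 1880 CPM (median 1060) in oligodendrocyte-like, 254 to 519 CPM (median 386) in astrocyte-like, and 3.6 to 7.24 CPM (median 6.29) in excitatory-like nuclei. Every value of these 2 glial classes exceeded every excitatory-like value, and the log2 difference was -6.23 (SE 0.11). Gm37494 was at 163 CPM in oligodendrocyte-like nuclei against 21.8 CPM in excitatory-like nuclei (log2 difference -1.89, SE 0.12). Rmst was at 267 to 430 CPM in astrocyte-like nuclei, 58.2 to 85.5 CPM in excitatory-like and 2.93 to 18.2 CPM in inhibitory-like nuclei. It was thus both higher in glia than in neurons (log2 difference -1.26, SE 0.10) and, among neurons, higher in excitatory-like nuclei (excitatory minus inhibitory 3.00, SE 0.15). Gm32618, 2610035D17Rik, Gm13483, Ino80dos and Pantr1 were the remaining 5 members higher in glia, with log2 differences from -1.43 to -1.05.

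**Figure D3:**
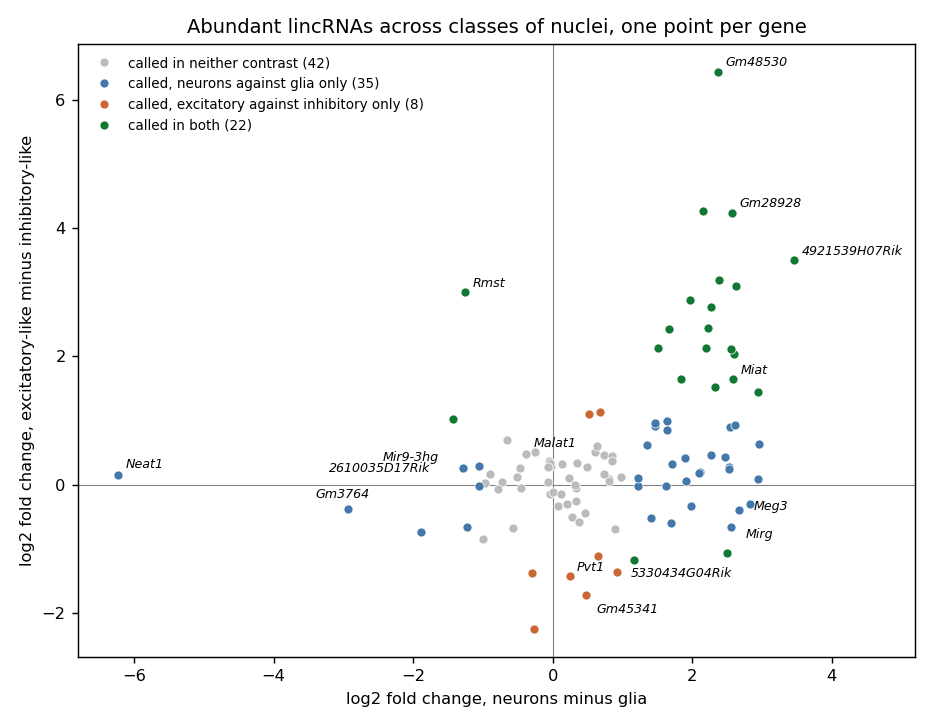
Log2 fold change of neurons minus glia on the horizontal axis against excitatory-like minus inhibitory-like nuclei on the vertical axis, 1 point per abundant lincRNA, colored by the contrast in which it was called. Neat1 lies far to the left at -6.23, and Gm28928 at the upper right is at 4.24 on the vertical axis, while Rmst is called toward glia and toward excitatory-like nuclei.

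Between the main classes of cortical neurons, 30 of 107 members tested differed at least 2-fold, 22 higher in excitatory-like and 8 higher in inhibitory-like nuclei (edgeR, FDR 0.05), against 17.4% of all genes called, 9.73% in the first and 7.69% in the second direction. The median log2 difference was 0.25 over the members and 0.00 over all genes. Among the 7300 genes tested with at least the members' mean bulk count, 13.1% were called, 8.85% higher and 4.22% lower in excitatory-like nuclei, with a median of 0.04. Gm28928 was at 816 to 1770 CPM (median 1420) in excitatory-like and at 52.2 to 93.9 CPM (median 79.2) in inhibitory-like nuclei, a log2 difference of 4.24 (SE 0.06). The classes were far apart in every mouse. As it lies within Dpp10, its UMIs may include intronic RNA of that potassium channel subunit. Gm48530 was represented by 757 UMIs in excitatory-like and 1 UMI in inhibitory-like nuclei, a ratio of 99.9 per UMI counted (95% exact interval 17.9 to 3950, counting error only).

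6530403H02Rik, the lincRNA with the largest fall of those with separate groups in bulk, was at 85.8 to 136 CPM (median 124) in excitatory-like and at 3.29 to 9.89 CPM (median 6.03) in inhibitory-like nuclei (log2 difference 4.27, SE 0.13). Among the named types it was highest in L6b-like nuclei, at 466 ± 136 CPM, followed by the excitatory nuclei led by Cpne7 (310 CPM) and Ndst4 (252 CPM) and by claustrum-like nuclei (236 CPM). L2/3-like nuclei were at 106 CPM, L6-like at 45.3 CPM and L5-like at 44.9 CPM, and striatal-like nuclei at 120 to 275 CPM. An unnamed cluster led by Foxp2 held it at the same mean, 466 ± 200 CPM. Gm32647 was at 799 ± 237 CPM in claustrum-like nuclei, 462 CPM in those led by Cpne7 and 352 CPM in those led by Angpt1, against 76.9 to 125 CPM over all excitatory-like and 110 to 214 CPM in striatal-like nuclei. Of the excitatory-like nuclei, 579 were L6b-like, 381 claustrum-like and 1021 led by Cpne7. Gm20063, which rose in bulk, was highest in L2/3-like nuclei (94 CPM) and in those led by Rorb (89.5 CPM) and Angpt1 (85.2 CPM), with an excitatory minus inhibitory log2 difference of 2.11 (SE 0.15).

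**Figure D4:**
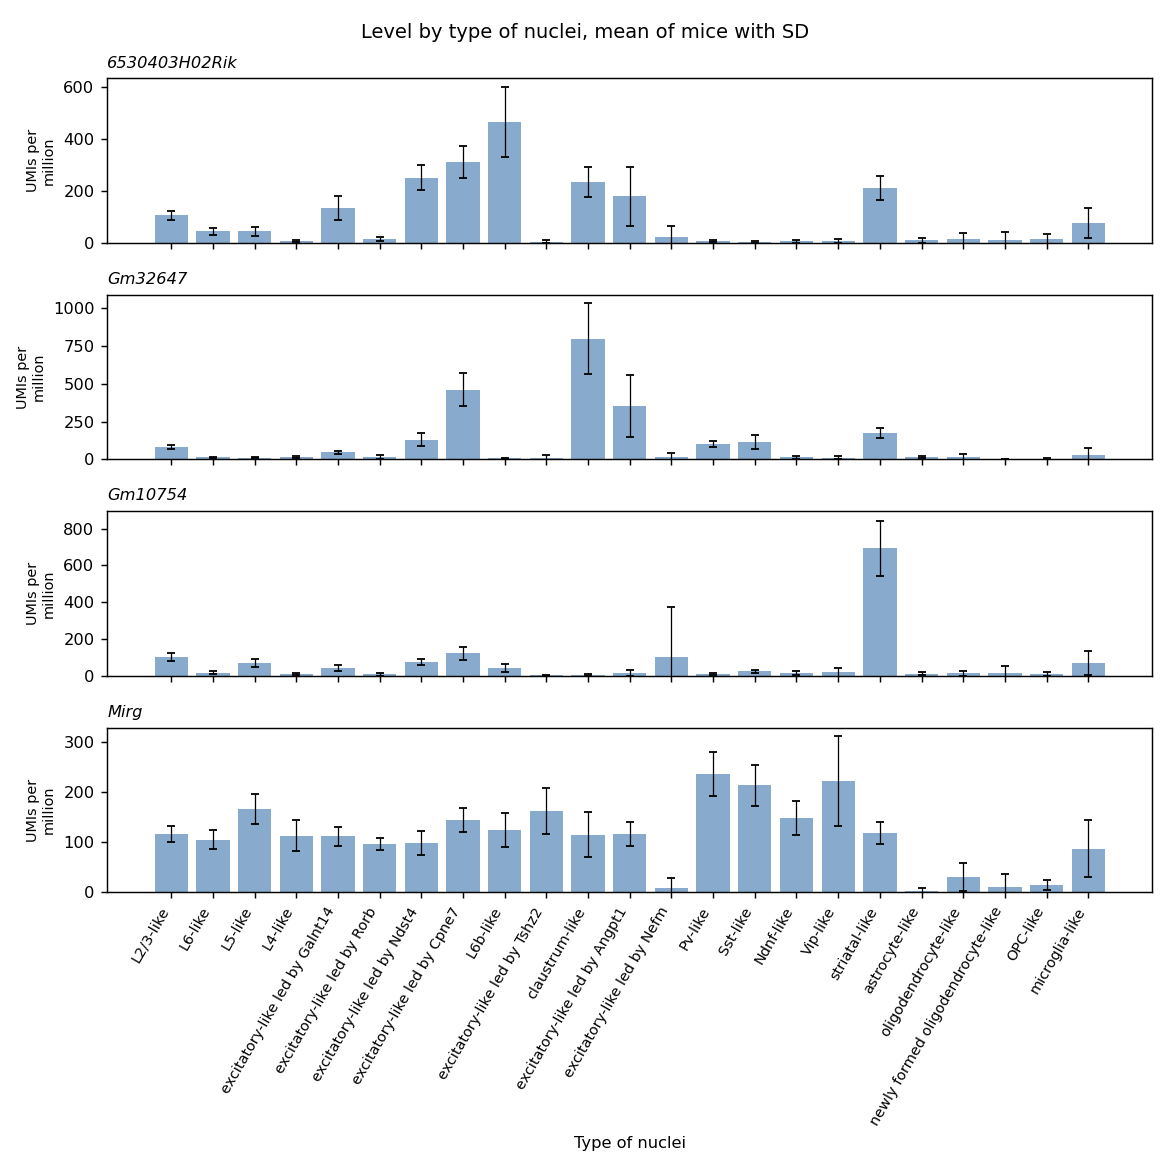
UMI level (CPM) in finer types of nuclei for 6530403H02Rik, Gm32647, Gm10754 and Mirg, bars at the mean of mice with SD error bars and axes from 0. 6530403H02Rik peaks in L6b-like (466), Gm32647 in claustrum-like (799) and Gm10754 in striatal-like nuclei (693), while Mirg is spread over neuron types.

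The 8 lincRNAs of the inhibitory side were led by Gm45881, at 50.1 to 80.8 CPM (median 60.2) in inhibitory-like and 9.32 to 15.6 CPM (median 12.2) in excitatory-like nuclei (log2 difference -2.25, SE 0.11), with 88.9 CPM in Pv-like nuclei. Pvt1 was at 68.1 to 99.8 CPM against 23.2 to 33.4 CPM (-1.43, SE 0.09), and was highest, at 137 CPM, in Ndnf-like nuclei. 5330434G04Rik was the most abundant of them, at 391 to 497 CPM in inhibitory-like and 135 to 178 CPM in excitatory-like nuclei (-1.36, SE 0.045). None of the 3 overlapped between the classes. Gm45341, which fell in bulk, also belonged here, at 21.8 ± 7.3 against 6.16 ± 1.44 CPM (-1.73, SE 0.17). Striatal-like nuclei held it at a similar level, 8.2 to 34.4 CPM (median 20.4), next to 13.6 to 36.0 CPM (median 21.0) in inhibitory-like nuclei.

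Striatal-like nuclei were the highest class for 24 members. Gm10754 was at 394 to 879 CPM (median 696) there, against 41 to 73 CPM in excitatory-like and 8.77 to 22.4 CPM in inhibitory-like nuclei. Because excitatory-like nuclei were far more numerous, they held 2822 of its UMIs and striatal-like nuclei 2883. Gm38413 (97.2 CPM) and C78859 (249 CPM) followed by ratio over the next class. Of the 24, 2 were called higher and 3 lower in bulk, where 1.16% of all genes were called higher and 2.13% lower, and their median log2 difference was -0.04. The 26 members that were highest in excitatory-like nuclei had a median of 0.13, with 20 above zero, 2 called higher and none lower, next to the median of 0.24 of the excitatory markers, and the 5 that were highest in oligodendrocyte-like nuclei had a median of -0.11, with 2 called lower. These counts of calls are too small to set one class apart from another.

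In the nuclei of the second cohort, CUS against control, fitted without a batch term, gave no call among the abundant lincRNAs. With all nuclei of a mouse summed, 0 of 51 members tested passed FDR 0.2 (edgeR's quasi-likelihood test), against 0.0199% of all genes, and 0 passed by DESeq2. The log2 differences of the 51 ran from -0.46 to 0.53 with a median SE of 0.12. Over the 7 broad classes, 0 of 247 tests of members passed FDR 0.2, against 0.0402% of all such tests of genes. A likelihood ratio test and DESeq2 each called 1 of the 247, Mir124a-1hg in excitatory-like nuclei. At an unadjusted p under 0.05 were 5 of the 51 and 21 of the 247. The shares of all genes under that limit were not taken, so these 2 counts have no background beside them. Without the library CUS 2, however, 13 of the 51 were called, 2 higher and 11 lower, when 16.6% of all genes were called as well, 9.54% higher and 7.04% lower. This fit was singled out because leaving out CUS 2 added calls. By correlation with the mean of the other mice, CUS 1 (0.9632) stood further apart than CUS 2 (0.9812). Leaving out 1 mouse also makes CUS and control uneven within a batch, and no batch term was fitted. Values without CUS 2 therefore cannot separate stress from batch.

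Mir124a-1hg was at 184, 161, 235 and 185 CPM in excitatory-like nuclei of the control mice and at 281, 187, 292 and 369 CPM in those of the CUS mice. CUS 2, at 187 CPM, lay within the control range and the other 3 above it. The log2 difference was 0.55 (edgeR, adjusted p = 0.501), and with all nuclei summed it was 0.53 (adjusted p = 0.589), or 0.66 without CUS 2 (adjusted p = 0.062). Gm10754 in all nuclei differed by -0.46 (adjusted p = 0.596), and by -0.87 without CUS 2 (adjusted p = 0.0146). The share of striatal-like nuclei moved with it, at 9.88%, 7.33%, 8.83% and 8.48% in control and 5.03%, 8.84%, 4.21% and 2.46% in CUS mice, and its part in this difference was not tested. The study counts striatal cells as contamination from dissection, and the part of dissection in this share was not tested either. Within striatal-like nuclei Gm10754 was at 662, 798, 658 and 811 CPM in control and at 394, 879, 616 and 730 CPM in CUS mice, overlapping groups with a log2 difference of -0.14 (adjusted p = 0.955).

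Of the 16 lincRNAs called in bulk, 7 could be tested in summed nuclei, and 6 of these had the same sign. Besides Mir124a-1hg and Gm10754, they were Gm32647 (-0.29), 6530403H02Rik (-0.26), Mirg (0.19) and C78859 (0.10), with 3110039M20Rik (-0.17) opposite, and none passed the test. Over all 51 members the sign was shared by 27, or 52.9%, and over all genes by 63.2%. Bulk and nuclei differ in region, age and time since the last stressor. Neat1 was under the limit for testing in summed nuclei. Without that limit its log2 difference was 0.44 (edgeR, adjusted p = 0.129), a call at FDR 0.2 that was opposite in sign to bulk. In the main fits the log2 difference of Neat1 was 0.78 in oligodendrocyte-like (adjusted p = 0.997) and 0.49 in astrocyte-like nuclei (adjusted p = 0.597), neither called and both opposite in sign to bulk.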

How the data were processed

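Bulk nuclear RNA was sequenced from stranded, ribosome-depleted libraries and aligned by the authors with STAR to mm10, keeping uniquely mapped reads, and the deposited values are raw counts of reads per gene. Whether introns or strand entered this counting is not given in the sources used here. For sNucDrop-seq, the deposited tables hold counts of UMIs per gene and barcode, which the authors took from exonic and intronic reads on the annotated strand (mm10, Gencode vM13), merging near-identical UMIs. Reads that map to several places were not counted, so genes with near-identical copies may be undercounted. The submitters' processing notes also name edgeR and Seurat.

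The members and the gene lists were chosen with earlier results of these data known. Counts were tested as deposited with edgeR 4.0.16 (R 4.3.3), quasi-likelihood F-tests, TMM factors and Benjamini-Hochberg adjustment over all genes tested. Bulk CUS against control used filterByExpr and FDR 0.05. Nuclei were kept with 600 to 5000 genes, up to 5% of UMIs from mitochondrial genes and doublet scores up to 0.2 (scanpy 1.11.5), and clustered on 2000 variable genes that excluded lincRNAs, and classes were named from fixed markers. Cut-offs for naming were set after clusters were seen and without regard to condition. UMIs were summed per mouse and class. CUS against control then used genes with summed UMIs above 0.1 per nucleus and FDR 0.2, and class contrasts used the mouse as a block, FDR 0.05 and at least 2-fold. Genes were named by fixed rules, namely the 6 highest per kb, all called in bulk, known lincRNAs, and 3 leading each class. Those described beyond these were chosen after their values were seen. Same-numbered mice were not paired, since the correlations of their deviations were 0.0335 to 0.199 in bulk and -0.452 to 0.399 in nuclei. Alternatives were a likelihood ratio test, DESeq2 1.42.0, other scaling, filters, resolutions, a replicate block and leaving out each mouse. Scripts were tested on simulated data. Bulk depth was 26188825 to 30525015 reads. Errors after ± are the SD between mice. The SE of a log2 fold change is its absolute value divided by the square root of the F statistic of its test. Intervals given for UMIs cover counting error only.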

Additional observations from a re-analysis of the deposited data

Results flagged for a closer look

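In 7 of 86 groups of bulk mice examined for the lincRNAs named here, 1 mouse stood apart from its group by Dixon's test at the 95% level, as did 15 of 232 groups over all abundant lincRNAs. Chance gives about 1 in 20. Control 3 stood apart in 3 genes, at 151 CPM for Gm3764 (next highest control 126), 78.8 CPM for Gm45881 (next 55.9) and 51.1 CPM for Pantr1 (next 34.5). Control 2 was at 352 CPM for AY036118, with the next control at 52.8 CPM. Among the stressed mice, CUS 2 was at 44.2 CPM for Gm45341 (next 19.9) and at 39.1 CPM for Gm45455 (next 17.6), which share reads, and CUS 1 was at 36.7 CPM for Gm32014 (next 30.8). No explanation for these values was tested.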

How the results depend on the processing

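The count of 16 bulk calls became 26 with a likelihood ratio test, 26 with DESeq2 and 10 of 77 members at a mean of 1000 or more reads, and leaving out single mice gave 5 to 33. With all nuclei summed, 0 calls became 5 without a filter on low counts (Bc1, Gm10754, Gm26917, Mir124a-1hg and Neat1), and 0 to 13 on leaving out mice, 13 being without CUS 2. In the broad classes, 0 became 1 with a likelihood ratio test and 1 with DESeq2 (Mir124a-1hg in excitatory-like nuclei), 4 without a filter and 0 to 11 on leaving out mice, with 11 without CUS 2 (2 higher, 9 lower) and 1, Meg3 in astrocyte-like nuclei, without CUS 3. Without a minimum fold, excitatory against inhibitory gave 71 in place of 30, and neurons against glia 88 in place of 57. The latter gave 30 without the doublet filter and 64 without the microglia-like nuclei, an alternative chosen after seeing the data. Leaving out mice gave 29 to 31 and 55 to 59. The replicate block on mouse numbers, which do not pair these mice, gave 10 calls in bulk and 0 and 0 in nuclei, and fits with no replicate block gave 29 and 57 in the class contrasts.

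Of the bulk fold changes of single members under these alternatives, 367 kept direction and call, 12 were gained, 70 were lost and 1 changed sign, AY036118 at 0.38 without control 2, its range on leaving out mice being -1.44 to 0.38. In the class contrasts, for the named members called there, 285 and 454 kept both and 23 were lost. The cause of these changes was not tested. Scaling to total UMIs moved the differences by -0.12 between excitatory-like and inhibitory-like nuclei. With few nuclei of glial classes, small differences between CUS and control could not be seen there, the median SE being 0.24 in astrocyte-like and 0.38 in oligodendrocyte-like nuclei.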

Other observations

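A second imprinted region, between Snrpn and Ndn on chromosome 7, held 5 abundant lincRNAs, none of which was called between CUS and control in bulk (log2 differences from -0.17 to 0.09). A230057D06Rik, the host of the miR-344 family, was at 475 ± 24.3 CPM in control (n = 4) and 505 ± 44.9 CPM in CUS mice (n = 5). In nuclei it was at 1040 CPM in inhibitory-like, 667 CPM in excitatory-like and 185 CPM in astrocyte-like nuclei, a neuron minus glia log2 difference of 1.41. A230006K03Rik from the same strand was at 507 CPM in excitatory-like and 459 CPM in inhibitory-like nuclei against 32.7 CPM in astrocyte-like nuclei (2.53). Gm44643 was the only one of the 5 called between neuron classes, higher in excitatory-like nuclei (36.9 against 12.3 CPM, 1.65).

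4933406I18Rik led the microglia-like nuclei at 243 to 779 CPM, with 198 CPM in excitatory-like nuclei. Ftx was at 206 CPM in excitatory-like, 218 CPM in inhibitory-like and 34 CPM in astrocyte-like nuclei, a neuron minus glia log2 difference of 1.91. Lncpint was at 999 ± 148 CPM in control and 1050 ± 45.7 CPM in CUS mice in bulk (adjusted p = 0.698, edgeR's quasi-likelihood test), and between 60.4 and 164 CPM in each class of nuclei. It and 4933406I18Rik did not reach the 2-fold limit between neurons and glia.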
